A study of Rattus norvegicus with 18 samples.

Results

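Interleukin 7 (IL-7) and common gamma chain signalling was followed through 9 genes in rat liver: the ligands Il7 and Il15, the receptor chains Il7r, Il2rg, Il2rb and Il15ra, the kinases Jak1 and Jak3, and the transcription factor Stat5a. These genes were chosen from group differences already known from earlier results of the same livers, so what follows on how they differed between the groups is a description. No p-value is printed for these differences. Where a call of such a gene is named (an adjusted p under 0.05), it describes the fit and is not evidence of a difference. Of the 9 genes, 8 were measured among the 32623 genes of the count tables, and Il7r was not analysed here. Of the 8, 7 passed the filter on low counts, which left 12904 genes for testing, and Il15 did not.

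RNA of whole liver was sequenced from male Wistar rats, with 1 library per rat and 6 rats in each of 3 groups. Control rats had standard chow and normal water for 12 weeks. NASH rats inhaled the liver toxin carbon tetrachloride (CCl4) during 6 weeks, drank water with phenobarbital meanwhile, and ate a high-fat, high-cholesterol diet (HFCD) in the following 4 weeks, 10 weeks in all. NASH-CH rats received CCl4 and phenobarbital over 24 weeks, and the HFCD during the last 16. The durations differ between all 3 groups and phenobarbital was given in both models and not to controls, so the effects of diet, CCl4, phenobarbital and time cannot be told apart. The age of the rats at sampling is not given in the sources used here, and the sources state 2 different RNA extraction kits.

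IL-7 is made mainly by stromal and epithelial cells, the liver among them, and is best known as a survival factor for T lymphocytes and their precursors. It binds a receptor made of its own alpha chain (Il7r) and the common gamma chain (Il2rg), which is also part of the receptors for IL-2, IL-4, IL-9, IL-15 and IL-21. JAK1 sits on the partner chain and JAK3 on the gamma chain. Together they phosphorylate STAT5, which enters the nucleus and switches on survival genes of the BCL2 family and its own inhibitors of the CISH and SOCS family. IL-15 shares the beta chain (Il2rb) with IL-2 and is presented by its own alpha chain (Il15ra), and it maintains natural killer (NK) cells and memory T cells.

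Totals ran from 19498534 to 29491947 expected counts in control and NASH libraries, and from 44680344 to 60117822 in NASH-CH libraries, so that depth cannot be told apart from that group. Levels are given as CPM, read counts scaled to a common library total after TMM normalization, which corrects for the composition of a library. Levels are not divided by gene length, so no level is compared between genes. The TMM factors of NASH-CH rats 5 and 6 were 1.28 and 1.22 and those of the other 4 NASH-CH rats 0.97 to 1.01, and values without these 2 rats stand beside the results below where they matter. RNA of 7SK, the signal recognition particle and other small RNA genes took 15.5 to 21.6% of counts in control, 14.3 to 16.6% in NASH and 10.7 to 12.8% in NASH-CH libraries. Its part in the results was not tested beyond a fit without those genes. The NASH and the NASH-CH comparison use the same 6 control rats.

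RefSeq gave the promoter of 5 of the 9 genes, from 250 bases before to 50 bases after the transcription start. Among the genes whose groups differed most, Il2rg was the one with an entry, and its promoter is shown because this receptor chain is shared by the whole family. In GRCr8, a later assembly than that of the counts, it lies at chrX:70438951-70439250 on the minus strand. Capitals mark the letters CCGGAA, the core that factors of the ETS family bind.

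Il2rg promoter: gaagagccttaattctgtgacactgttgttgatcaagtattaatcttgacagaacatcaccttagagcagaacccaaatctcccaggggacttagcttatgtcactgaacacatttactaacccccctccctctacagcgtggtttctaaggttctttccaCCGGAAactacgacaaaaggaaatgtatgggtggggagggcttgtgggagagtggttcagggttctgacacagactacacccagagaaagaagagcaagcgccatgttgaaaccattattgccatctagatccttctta

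Both strands were searched for 4 motifs that do not overlap here. CCGGAA matched 1 time, at base 162 of the 300, and 15% of 33469 rat promoters of the same length hold it. The STAT motif TTCNNNGAA (held by 8.87% of promoters), the interferon-stimulated response element GAAANNGAAA (3.92%) and the TATA letters TATAAA (14.2%) had 0 matches in this window. A match is a description of the letters and not a site that was measured.

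Il7 (ENSRNOG00000011973), the ligand, was higher in both models than in control rats, and higher in NASH-CH than in NASH. The 6 control rats had 0.187, 0.193, 0.606, 0.413, 0.298 and 0.143 CPM. The 6 NASH rats had 0.624, 0.643, 1.35, 0.923, 0.753 and 1.07 CPM, and the 6 NASH-CH rats 1.52, 1.35, 1.34, 2.05, 1.36 and 1.62 CPM. Every NASH rat lay above every control rat, though by a small margin between control rat 3 and NASH rat 1. Every NASH-CH rat lay above every control rat as well, whereas NASH rat 3 reached the lowest NASH-CH rats.

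In group means Il7 went from 0.307 ± 0.176 CPM in control (SD, n = 6) to 0.894 ± 0.282 in NASH and 1.54 ± 0.274 in NASH-CH rats. The log2 fold change was 1.62 (SE 0.33, 95% interval 0.93 to 2.32) for NASH against control, a 3.08-fold difference. It was 2.39 (SE 0.30, interval 1.76 to 3.02) for NASH-CH against control, a 5.24-fold difference. Between NASH-CH and NASH rats it was 0.77 (SE 0.21, interval 0.33 to 1.21). Among the 12904 tested genes these values stand at percentiles 99.2, 99.3 and 95.2 of the log2 fold changes. Il7 was chosen from these contrasts and passed the filter through the groups in which it was high, so nothing is read from these places.

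The counts behind Il7 were low. Control livers gave 3 to 12 counts each, NASH livers 14 to 35 and NASH-CH livers 62 to 105. With the NASH-CH libraries thinned to the depth of the others they still gave 35 to 58 counts, and the log2 fold change against control was 2.46. Only 2 of the 6 control rats reached the cutoff of the filter, 0.369 CPM, against 6 of 6 in each model, so Il7 entered the fit through the groups in which it was high. Over the alternatives in which it was tested, its log2 fold change against control ran from 1.41 to 1.82 in NASH and from 2.19 to 2.62 in NASH-CH. Its call between NASH-CH and NASH was lost without NASH rat 1, 2, 4, 5 or 6 and without NASH-CH rat 1, 2, 4 or 6, with values of 0.69 to 0.84.

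That call of Il7 between the models was also lost without NASH-CH rats 5 and 6 together (0.79), with edgeR's test (0.78), with scaling to library size only (0.82), with the 2 groups fitted alone (0.76), without small RNA genes (0.76) and with a replicate block (0.73).

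Il15 (ENSRNOG00000003439), the ligand that shares its receptor chains with IL-2, stayed under the filter. Control rats gave 0 to 5 counts, NASH rats 2 to 13 and NASH-CH rats 7 to 14. In CPM the means were 0.123 ± 0.0689, 0.241 ± 0.13 and 0.198 ± 0.0532 (SD, n = 6), and the ranges of all 3 groups overlapped. Il15 was not tested at these counts, and no difference is given.

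**Figure D1:**
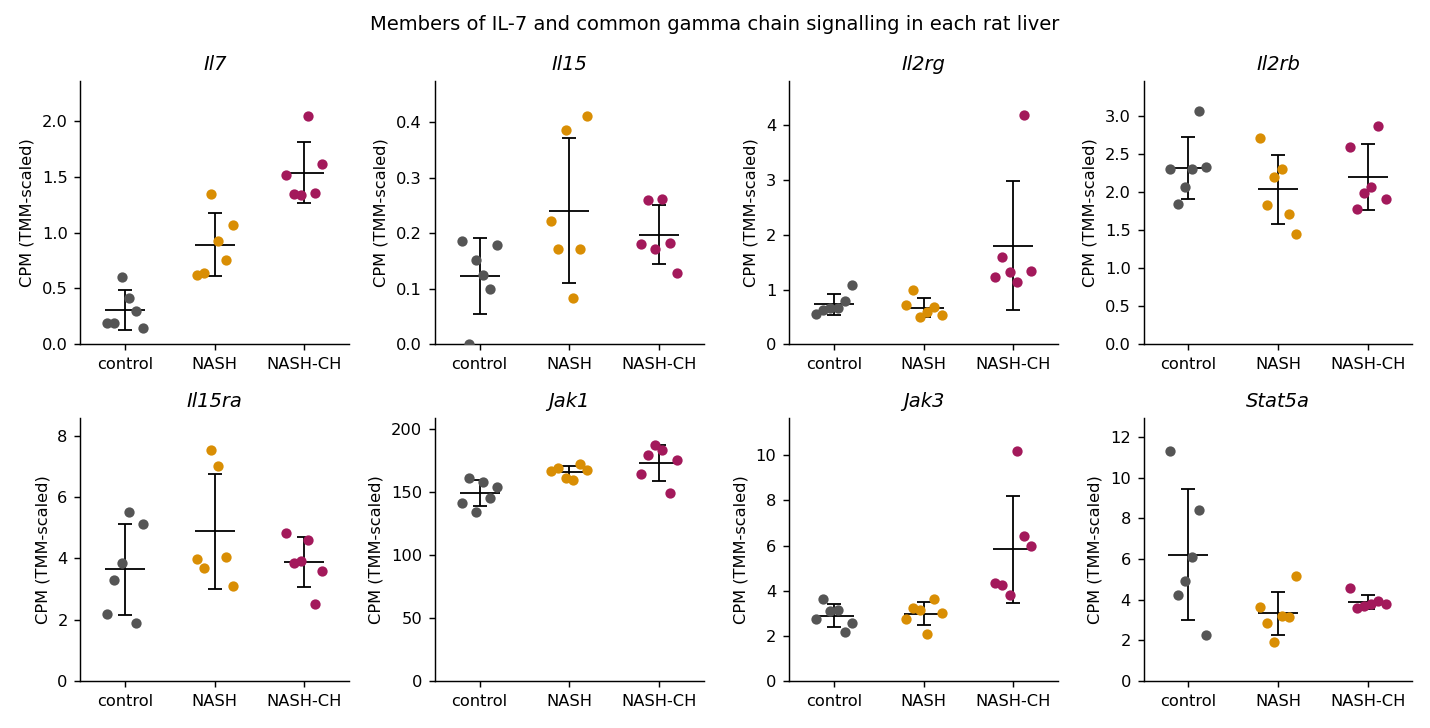
CPM of the 8 measured genes, with 1 point per rat, 1 panel per gene, and control, NASH and NASH-CH rats from left to right (bars: mean ± SD, n = 6; each vertical axis starts at 0 and has its own scale). Il7 steps up from control to NASH to NASH-CH, Il2rg and Jak3 are higher in NASH-CH rats, where 1 rat stands far above its group at 4.19 CPM for Il2rg and another at 10.2 CPM for Jak3, and the groups overlap for the other genes.

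Among the receptor chains, Il2rg (ENSRNOG00000003954), the common gamma chain, was higher in NASH-CH rats and not in NASH rats. Control rats had 0.561, 0.617, 0.656, 0.661, 0.793 and 1.08 CPM. NASH rats had 0.713, 0.985, 0.501, 0.587, 0.685 and 0.537 CPM, and NASH-CH rats 1.22, 1.59, 1.32, 1.14, 4.19 and 1.33 CPM. All 6 NASH-CH rats lay above all control and NASH rats, and NASH-CH rat 5, with 323 counts, stood far above the other 5.

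The mean of Il2rg was 0.727 ± 0.187 CPM in control livers, 0.668 ± 0.176 in NASH and 1.80 ± 1.18 in NASH-CH rats (SD, n = 6). For NASH against control the log2 fold change was -0.17 (SE 0.47, 95% interval -1.15 to 0.81), and control and NASH rats overlapped over nearly their whole range. For NASH-CH it was 1.17 (SE 0.38, interval 0.38 to 1.97) against control and 1.34 (SE 0.37, interval 0.56 to 2.12) against NASH. Without NASH-CH rat 5 these values were 0.82 and 0.98, and without NASH-CH rats 5 and 6 they were 0.82 and 0.99.

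The call of Il2rg in NASH-CH against control was lost when only those 2 groups were fitted, at the same value of 1.17. It was also lost without control rat 1, 2, 3, 4 or 5 (1.11, 1.12, 1.14, 1.13 and 1.19) and without NASH-CH rat 2 (1.17). Against NASH the call was lost without any 1 of the 6 NASH rats and without NASH-CH rat 2, 3 or 6, with values of 1.27 to 1.45, and with library size only (1.33), the 2 groups alone (1.34) and no small RNA genes (1.33).

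The chains particular to IL-2 and IL-15 showed overlapping groups. Il2rb (ENSRNOG00000048636), the beta chain that IL-2 and IL-15 share, ran from 1.85 to 3.07 CPM in control (median 2.31), from 1.45 to 2.72 in NASH (median 2.02) and from 1.78 to 2.87 in NASH-CH rats (median 2.03). Its log2 fold change was -0.22 (95% interval -0.61 to 0.18) in NASH and -0.06 (-0.41 to 0.29) in NASH-CH. Il15ra (ENSRNOG00000018706), which presents IL-15 to neighbouring cells, ran from 1.88 to 5.50 CPM in control (median 3.56), from 3.10 to 7.52 in NASH (median 4.00) and from 2.51 to 4.82 in NASH-CH rats (median 3.87).

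The Il15ra differences were 0.38 (95% interval -0.22 to 0.99) in NASH and 0.09 (-0.48 to 0.66) in NASH-CH on the log2 scale. Intervals of this width do not show that either chain was alike in the groups. The signs of the smallest values turned under some settings: the Il2rb value in NASH-CH and the Il2rg value in NASH were 0.18 and 0.07 with scaling to library size only. Under that setting the median log2 fold change of all tested genes was 0.268 in NASH-CH and 0.229 in NASH. In the main fit it was 0.013 and 0.007.

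Of the kinases, Jak3 (ENSRNOG00000018669), which in health is found mostly in blood cells, was higher in NASH-CH rats than in both other groups. Control rats had 2.74, 3.62, 3.08, 3.14, 2.18 and 2.58 CPM, and NASH rats 2.76, 3.21, 3.16, 2.10, 3.63 and 3.00 CPM. NASH-CH rats had 4.36, 4.24, 3.83, 10.2, 6.44 and 5.98 CPM. Control and NASH rats covered nearly the same range, and all 6 NASH-CH rats lay above both, with NASH-CH rat 4 highest and not rat 5 as for Il2rg.

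Jak3 averaged 2.89 ± 0.501 CPM in control livers, 2.98 ± 0.517 in NASH and 5.84 ± 2.36 in NASH-CH rats (SD, n = 6). Its log2 fold change was 0.04 (SE 0.27, 95% interval -0.52 to 0.60) in NASH against control, 0.93 (SE 0.23, interval 0.44 to 1.42) in NASH-CH against control and 0.89 (SE 0.22, interval 0.42 to 1.36) in NASH-CH against NASH. Without NASH-CH rats 5 and 6 the value against control was 0.83, and that against NASH was 0.79 and lost its call. The call against NASH was also lost without NASH rat 1, 3, 4 or 6 and without NASH-CH rat 5, with values of 0.79 to 0.91, and with library size only (0.92), the 2 groups fitted alone (0.88) and a replicate block (0.91).

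Jak1 (ENSRNOG00000011157), a kinase that most cells use for several cytokine families, differed little. It ran from 134 to 161 CPM in control (median 150), from 159 to 172 in NASH (median 167) and from 149 to 187 in NASH-CH rats (median 177). Its log2 fold change was 0.16 (SE 0.07, 95% interval 0.00 to 0.31) in NASH and 0.22 (SE 0.08, interval 0.06 to 0.38) in NASH-CH against control. The NASH-CH value had no call, and it gained one without control rat 2 (0.24), without NASH-CH rat 5 (0.26), without NASH-CH rats 5 and 6 (0.26) and under 5 other settings (0.21 to 0.47). The NASH value gained a call with scaling to library size only (0.38).

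Stat5a (ENSRNOG00000019496), the transcription factor at the end of the chain, was scattered in control rats. They had 11.3, 4.24, 4.90, 6.08, 8.43 and 2.26 CPM, while NASH rats ran from 1.93 to 5.15 (median 3.15) and NASH-CH rats from 3.61 to 4.58 (median 3.78). The groups overlapped, and NASH-CH rats lay closest together. The log2 fold change was -0.70 (SE 0.30, 95% interval -1.34 to -0.06) in NASH and -0.43 (SE 0.27, interval -0.99 to 0.13) in NASH-CH.

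Neither Stat5a value had a call, and both gained one without control rat 6, the lowest control rat, at -0.98 and -0.72. The NASH value also gained one with DESeq2 (-0.90). Stat5a and Stat5b are near-identical neighbours and the Stat5a counts were not whole numbers, so reads could be split between them and the Stat5a value is uncertain. The sum of the 2 genes differed by -0.37 in NASH and -0.36 in NASH-CH, without a call.

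**Figure D2:**
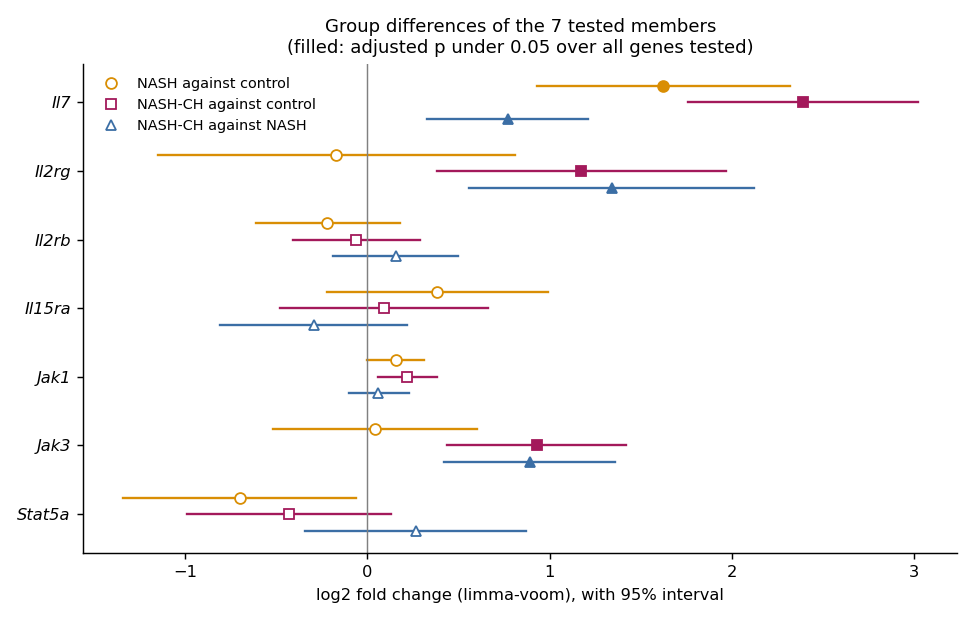
Log2 fold changes (limma-voom) with 95% intervals of the 7 tested genes for NASH against control, NASH-CH against control and NASH-CH against NASH (filled symbols: adjusted p under 0.05 over all 12904 genes). Il7 lies above 0 in all 3 comparisons and Il2rg and Jak3 in those of the NASH-CH rats, while the intervals of Il2rb and Il15ra include 0 throughout. The genes were chosen from these contrasts, so the filling is a description.

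Counted together, 1 of the 7 tested genes was higher with a call in NASH against control, where 1.58% of all tested genes were higher and 1.54% lower. In NASH-CH against control it was 3 of 7 higher, where 8.38% of all genes were higher and 8.60% lower. In NASH-CH against NASH it was again 3 of 7, with 1.81% of all genes higher and 2.39% lower. Every rat of the first group lay above every rat of the second for 1, 3 and 2 of the 7 genes in that order, and for 1.77%, 3.64% and 1.36% of all genes. Since the genes were chosen from these contrasts, nothing is read from these counts. The median log2 fold change of the 7 was 0.04, 0.22 and 0.27, and that of all tested genes 0.007, 0.013 and 0.007.

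The rest of the pathway was taken from a list of 41 other genes, of which 40 were measured and 32 tested. This list and the marker lists below were also chosen with earlier results of these livers known. Their p-values come from the fit over all genes and do not allow for that choice. In NASH-CH against control 5 rose and 1 fell, which left 26 without a call, where 8.38% of all tested genes rose and 8.60% fell. There 11 of 32 had an unadjusted p under 0.05, as did 31.7% of all tested genes. Nothing is read from these counts about the pathway. The 5 that rose were the adaptor Gab2, the inhibitor Sh2b3, the kinase Fyn, the transcription factor Stat6 and the survival gene Bcl2l1. The 1 that fell was the kinase gene Pim2, a STAT5 target. In NASH against control 0 rose and Pim2 fell, and 8 of 32 had an unadjusted p under 0.05, as did 21.5% of all tested genes. In NASH-CH against NASH 0 of 32 passed limma-voom or edgeR's test, 1 passed DESeq2's, and 2 had an unadjusted p under 0.05, as did 17.5% of all tested genes. The median log2 fold change of the 32 was 0.04, 0.11 and 0.12 in NASH, in NASH-CH and between them.

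Gab2, an adaptor that links cytokine receptors to PI3 kinase, ran from 0.561 to 1.61 CPM in control (median 1.06), from 1.07 to 1.64 in NASH (median 1.40) and from 1.52 to 2.66 in NASH-CH rats (median 1.99). It rose by 0.87 on the log2 scale in NASH-CH (SE 0.20, adjusted p = 0.00734, limma-voom with Benjamini-Hochberg adjustment). The top of the control range overlapped the bottom of the NASH-CH range.

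Sh2b3, which encodes LNK, a brake on JAK signalling, went from a median of 14.8 CPM in control livers to 17.5 in NASH and 19.9 in NASH-CH rats. Sh2b3 rose by 0.45 in NASH-CH (SE 0.11, limma-voom adjusted p = 0.0135). Fyn, a kinase of the SRC family, went from a median of 2.91 CPM in control (2.06 to 3.13) to 3.75 in NASH (3.29 to 4.81) and 3.72 in NASH-CH rats (3.60 to 5.74). For Fyn both models lay wholly above the controls, and the difference was 0.53 in NASH-CH (SE 0.15, limma-voom adjusted p = 0.0210) and 0.45 in NASH (SE 0.16, adjusted p = 0.117). The Fyn call in NASH-CH was lost without control rat 1 (0.46) and with the 2 groups fitted alone (0.53), while Gab2 and Sh2b3 kept theirs in the fits that each left out 1 rat.

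Stat6, which carries the signal of the gamma chain receptor for IL-4, ran from 14.9 to 32.5 CPM in control (median 17.3), from 24.1 to 28.0 in NASH (median 25.8) and from 23.9 to 33.6 in NASH-CH rats (median 30.3). It rose by 0.51 in NASH-CH (SE 0.16, limma-voom adjusted p = 0.0400). Bcl2l1, which encodes the survival protein BCL-XL, had medians of 23.6, 28.2 and 35.6 CPM in control livers, NASH and NASH-CH rats and rose by 0.58 (SE 0.19, limma-voom adjusted p = 0.0408).

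These last 2 calls were weak. That of Stat6 was lost without control rat 1, 3, 4 or 5 and without NASH-CH rat 2, 4, 5 or 6 (0.42 to 0.52), without NASH-CH rats 5 and 6 together (0.41), with edgeR's test (0.47) and with the 2 groups fitted alone (0.51). That of Bcl2l1 was lost without control rat 1, 4 or 5 and without NASH-CH rat 1, 2, 3, 4 or 6 (0.46 to 0.60), and with the 2 groups alone (0.58).

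Pim2, a kinase gene that STAT5 induces in lymphocytes, moved the other way from Bcl2l1. It ran from 2.48 to 4.67 CPM in control (median 3.88), from 1.57 to 2.81 in NASH (median 2.35) and from 2.10 to 2.89 in NASH-CH rats (median 2.35). The fall was -0.75 in NASH (SE 0.17, limma-voom adjusted p = 0.0249) and -0.63 in NASH-CH (SE 0.15, limma-voom adjusted p = 0.00736). In NASH the call was lost without control rat 3 or 4 and without NASH rat 3 or 5 (-0.64 to -0.77), and with scaling to library size only it was lost in both models, at -0.51 and -0.36.

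Other parts of the pathway had no call. Stat5b, the other STAT5 gene, differed from control by -0.31 in NASH rats (limma-voom adjusted p = 0.306) and by -0.33 in NASH-CH rats (adjusted p = 0.204). Il4r, the receptor chain that pairs with the common gamma chain for IL-4, differed by -0.22 (adjusted p = 0.508) and 0.00 (adjusted p = 0.999). Il2ra, the high-affinity chain for IL-2, had a median of 0.307 CPM in control livers, 0.236 in NASH and 0.648 in NASH-CH rats, with a difference of 0.95 in NASH-CH (SE 0.40, limma-voom adjusted p = 0.107). Socs2, a STAT5-induced inhibitor, ran from 13.1 to 40.4 CPM in control, from 4.8 to 68.2 in NASH and from 4.92 to 46.5 in NASH-CH rats. Its difference was -0.14 in NASH (SE 0.66, limma-voom adjusted p = 0.928). In NASH-CH the Socs2 difference was -0.94 (SE 0.66, adjusted p = 0.347), with an interval of -2.33 to 0.45.

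The remaining ligands of the family were at or near 0. Il9 and Il21 had 0 counts in all 18 rats, Il2 and Il4 at most 1 count in any rat, and Tslp, a ligand that uses the IL-7 receptor chain with another partner, at most 3. Il9r, Socs1 and Bcl2 also stayed under the filter. Genes of interferon response, the other large JAK-STAT branch, were listed for comparison: 0 of 10 passed in limma-voom in any of the 3 comparisons, and 4, 2 and 0 of them had an unadjusted p under 0.05 in NASH, in NASH-CH and between them, as did 21.5%, 31.7% and 17.5% of all tested genes. Their median log2 fold changes were -0.29, -0.30 and 0.06.

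**Figure D3:**
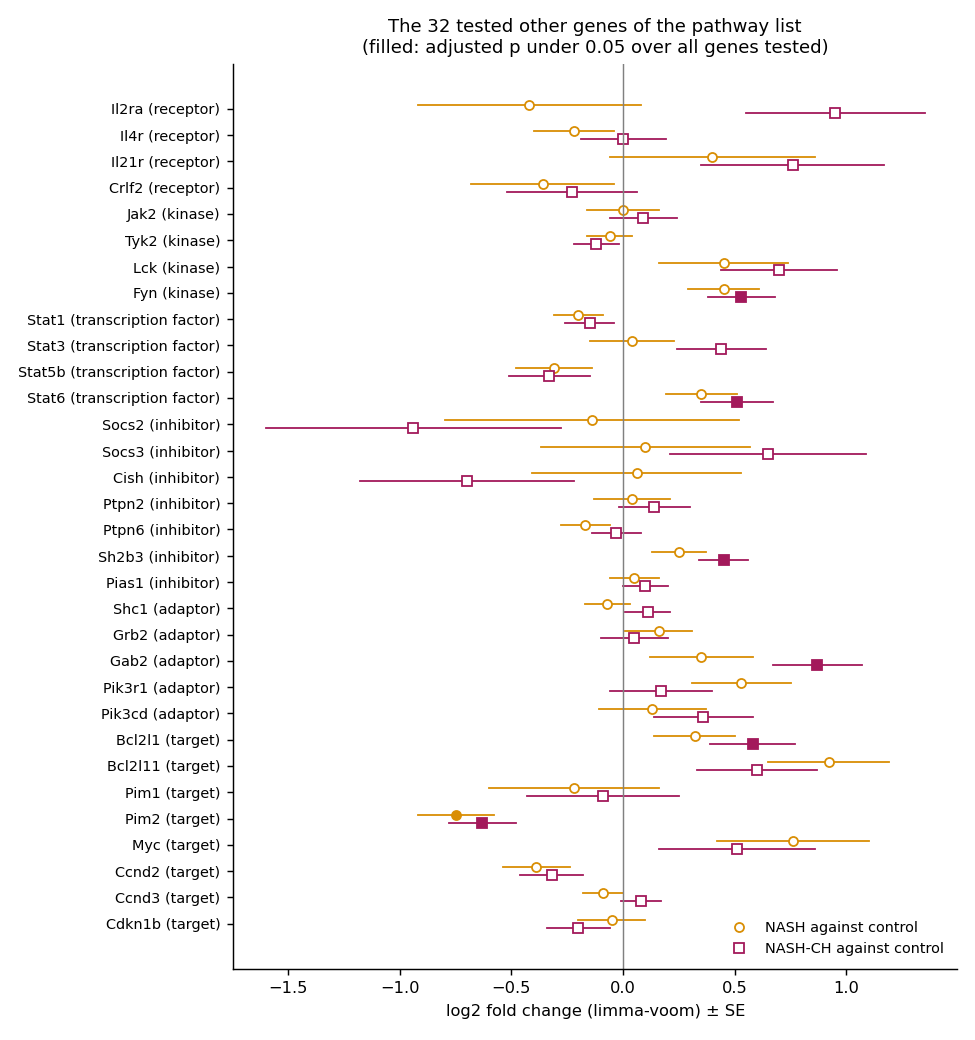
Log2 fold changes (limma-voom) ± SE of the 32 tested genes of the pathway list, by role from receptors to targets, for each model against control (filled: adjusted p under 0.05 over all genes tested). In NASH-CH rats Gab2, Sh2b3, Fyn, Stat6 and Bcl2l1 are filled above 0 and Pim2 is filled below 0, and in NASH rats Pim2 alone is filled.

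Il2rg, Il2rb and Jak3 are used mostly by lymphocytes and other blood cells, so the markers of such cells are given beside them. In whole liver a change in the number of cells of a type and a change in RNA per cell cannot be told apart. T lymphocyte markers were sparse: of 12 listed genes 11 were measured, 3 were tested and 0 passed limma-voom in any comparison (0 with an unadjusted p under 0.05). The 3 CD3 genes, which define T cells, summed to 0.0386 to 0.347 CPM in control livers, 0.126 to 0.386 in NASH and 0.0873 to 1.16 in NASH-CH rats. The measured markers under the filter all had a higher mean in NASH-CH than in control rats, at low counts and without a test. Means in control, NASH and NASH-CH rats were 0.0346, 0.0994 and 0.218 CPM for Cd28. They were 0.0124, 0.111 and 0.189 CPM for Cd8b, and 0.175, 0.236 and 0.507 CPM for Cd2. Medians of Cd28, Cd8b and Cd2 in NASH-CH rats were 0.209, 0.191 and 0.402 CPM. Cd3g had 0 counts in some rats of each group, and the 2 markers with the most counts per library were Cd4, at 9.45 ± 2.24, 10.4 ± 1.44 and 11.6 ± 2.34 CPM (SD, n = 6), which rat macrophages also express, and Cd8a, at 0.509 ± 0.221, 0.469 ± 0.137 and 0.555 ± 0.272.

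NASH-CH rat 5, which had the highest Il2rg level, also had the highest T lymphocyte marker sums. Its CD3 genes summed to 1.16 CPM (89 counts), and the other NASH-CH rats had 0.0873 to 0.423. The sum of the whole list was 8.60 to 14.8 CPM in control livers, 9.76 to 13.8 in NASH and 11.2 to 22.5 in NASH-CH rats, with 22.5 in rat 5, and without Cd4 it was 0.827 to 2.13, 1.56 to 2.18 and 1.81 to 6.48, with 6.48 in rat 5. Without that rat the Il2rg difference against control was 0.82, as given above. The part of T cells in it was not tested further.

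Within each group of 6 rats, the levels of Il7, Il15, Il2rg, Il2rb and Jak3 were correlated with the mean log2 CPM of Cd4 and Cd8a, the T lymphocyte markers with a mean of at least 0.5 CPM. None of the 15 relations passed (Pearson's r from -0.54 to 0.76, smallest exact permutation p = 0.1, smallest adjusted p = 0.928). For Il2rg in NASH-CH rats r was 0.76 (exact permutation p = 0.179) and Spearman's rho 0.14 (exact permutation p = 0.803). Without the 2 rats farthest from the median marker level r was -0.78, so it rested on those rats.

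With 6 sparser markers nearer to the T cell receptor (Cd3d, Cd3e, Cd3g, Cd2, Cd247 and Cd28), a choice made after seeing the data, 1 of 15 relations passed. This was Il2rg in NASH-CH rats, with r = 0.94 (exact permutation p = 0.00139, adjusted p = 0.0208) and rho = 1.0 (exact permutation p = 0.00278, adjusted p = 0.0417), so that the 6 rats had the same order by both. Without the 2 rats farthest from the median r was 0.86 over 4 rats (exact permutation p = 0.125). With 4 rats even r = -0.99, for Il2rb in NASH-CH rats, gave an exact permutation p of 0.0417. A single relation could thus not pass the adjustment over 15, and this fit cannot decide whether the relation holds. In control rats r was 0.66 (exact permutation p = 0.132) and in NASH rats -0.03 (exact permutation p = 0.95), and the difference between groups was not tested. Jak3 and Il7 had r = -0.12 (exact permutation p = 0.812) and -0.64 (exact permutation p = 0.194) in NASH-CH rats.

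NK and cytotoxic lymphocyte markers summed to 3.43 to 7.64 CPM in control livers, 2.90 to 5.62 in NASH and 2.32 to 5.70 in NASH-CH rats. Of the 9 genes 4 were tested, and 0 rose and 1 fell in NASH-CH, where 8.38% of all tested genes rose and 8.60% fell. Gzma, a granzyme of cytotoxic cells, fell by 1.46 on the log2 scale in NASH-CH (SE 0.28, limma-voom adjusted p = 0.0019), from 1.46 ± 0.697 to 0.507 ± 0.143 CPM (SD, n = 6), and Prf1 stood at 1.34 ± 0.478 and 0.967 ± 0.234 CPM without a call.

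Of 9 tested macrophage and dendritic cell markers 4 fell and 0 rose in NASH-CH, namely Csf1r (-0.46, adjusted p = 0.00635), Cd163 (-0.48, adjusted p = 0.0304), Marco (-2.15, adjusted p = 0.00568) and the Kupffer cell gene Clec4f (-0.58, adjusted p = 0.0381, limma-voom), and Marco fell in NASH. Of all tested genes 8.60% fell and 8.38% rose in NASH-CH, and 1.54% fell in NASH. Itgax, a dendritic cell integrin gene, differed by 0.96 in NASH-CH (SE 0.47, limma-voom adjusted p = 0.167). The sums of the 9 genes were 241 to 416 CPM in control livers, 183 to 279 in NASH and 170 to 261 in NASH-CH rats, with the most counts in Clec4f and Cd14. Their part in the Il2rg and Jak3 differences was not tested. Neutrophil markers, led by S100a9 and S100a8, summed to 0.287 to 2.73, 0.446 to 1.26 and 0.585 to 5.43 CPM, with the highest value again in NASH-CH rat 5.

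**Figure D4:**
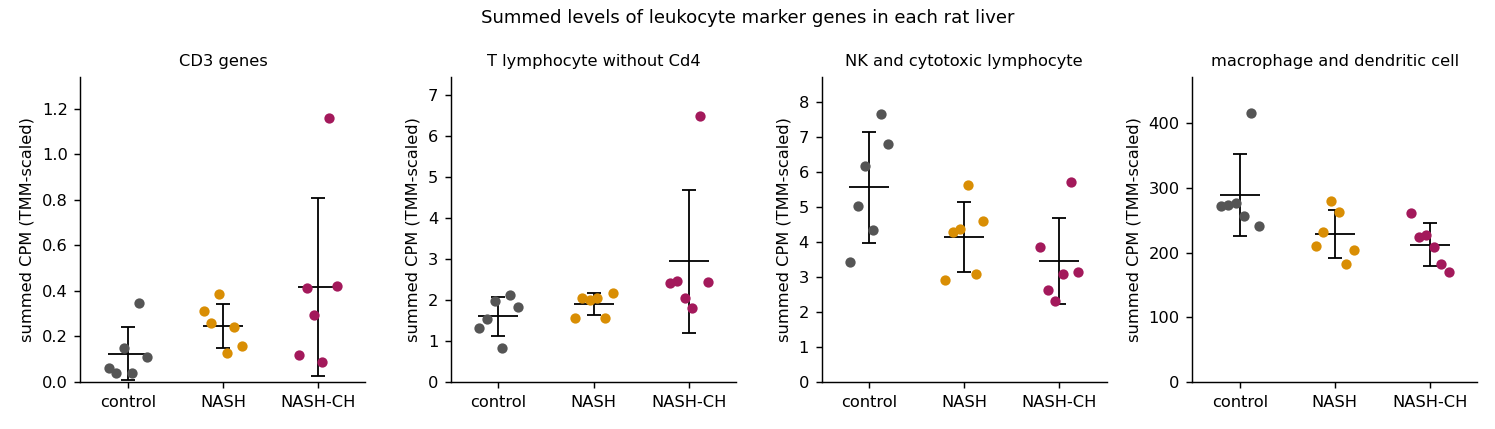
Summed CPM of the 3 CD3 genes, of the T lymphocyte list without Cd4, of the NK and cytotoxic lymphocyte list and of the macrophage and dendritic cell list, with 1 point per rat (bars: mean ± SD, n = 6; axes start at 0). NASH-CH rat 5 is the single high point of the CD3 panel at 1.16 CPM and of the T lymphocyte panel at 6.48 CPM, and the groups overlap in all 4 panels.

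Il7 comes mostly from non-lymphoid cells, and their markers are given beside it. Of 8 stellate cell and fibroblast markers, Col1a1 (1.02, adjusted p = 0.0186) and Des (0.65, adjusted p = 0.00468) rose and the vitamin A enzyme gene Lrat fell (-0.68, adjusted p = 0.00251, limma-voom) in NASH-CH against control, and Lrat fell in NASH. Between NASH-CH and NASH rats Col1a1 (1.01, adjusted p = 0.0451), Col3a1 (0.49, adjusted p = 0.0457) and Des (0.56, adjusted p = 0.0218, limma-voom) rose. Of all tested genes 8.38% rose and 8.60% fell in NASH-CH against control. In NASH against control 1.54% fell, and in NASH-CH against NASH 1.81% rose. Sums were 278 to 371, 224 to 307 and 276 to 430 CPM, with the most counts in Col3a1 and Lrat.

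Ccl21, a chemokine of lymphatic endothelium, was the endothelial marker that rose in NASH-CH, by 2.09 (SE 0.65, limma-voom adjusted p = 0.0341). It ran from 1.62 to 3.17 CPM in control livers (median 2.28) and from 4.04 to 60.7 in NASH-CH rats (median 8.56), so its top value lay far above the middle. The other 6 tested markers of this list had no call there, among them Lyve1 (-0.16) and Flt4 (0.20). Of all tested genes 8.38% rose in NASH-CH. The endothelial list, led by Fcgr2b and Stab2, summed to 205 to 288, 246 to 301 and 221 to 284 CPM. Bile duct markers, led by Epcam and Krt19, had 0 calls in limma-voom (0 with an unadjusted p under 0.05) and summed to 6.61 to 7.33, 5.03 to 11.3 and 4.24 to 33.4 CPM.

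The tissue label held against its markers: hepatocyte genes, led by Alb and Tf, summed to 122000 to 181000 CPM in control livers, 83100 to 142000 in NASH and 80100 to 132000 in NASH-CH rats. Of these 6 genes Apoa1 fell in NASH (-0.82, adjusted p = 0.011), and Alb, Apoa1 and Ttr fell in NASH-CH (-0.61, -0.66 and -0.76, adjusted p = 0.0304, 0.0107 and 0.0174, limma-voom). Of all tested genes 1.54% fell in NASH and 8.60% in NASH-CH. The part of stellate, endothelial, bile duct and hepatocyte composition in the Il7 difference was not tested.

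Genes whose level moved most like that of Il7 from rat to rat, after each group's mean was removed, were Ercc6l2, Nanp, Synj2bp, Apip and Pus7l, with Pearson's r of 0.77, 0.71, 0.70, 0.70 and 0.69 over 18 rats among 10432 genes. For Il2rg they included Kif12, Bok, Tmem106a and the macrophage lectin gene Clec10a, with r of 0.91, 0.86, 0.84 and 0.84. Without NASH-CH rat 5 the Il2rg values were 0.72, 0.55, 0.44 and 0.49, whereas those of Il7 were 0.69 to 0.79. All points share their libraries and these values are given with no test.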

How the data were processed

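The members and the gene lists were chosen with earlier results of these data known. The authors trimmed reads with Trim Galore, aligned them to Rnor_6.0 with STAR and quantified Ensembl release 95 genes with RSEM, per the labels and the methods of the study, with tool versions not given in the sources used here. They deposited RSEM expected counts, 1 table per rat, without any scaling to depth or to transcript length. The labels name a stranded mRNA kit, whereas the strand setting of the counting is not given in the sources used here.

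Expected counts were rounded, filtered with filterByExpr and scaled by TMM in edgeR 4.0.16. All 18 rats were fitted with limma 3.58.1 (voom, 1 mean per group) in R 4.3.3, as in the methods of the study, and p-values were adjusted over 12904 genes by the Benjamini-Hochberg method at 0.05. A call is an adjusted p under that threshold. Within-group correlations used log2 CPM with a prior count of 2 and two-sided exact permutation over 720 pairings, and were adjusted over 15 relations. Where a symbol had more than 1 row, the row with the larger total was used.

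Named genes were all members, pathway and interferon genes with a call (at most the 10 with the largest absolute moderated t per comparison), Stat5b, Il4r, Il2ra and Socs2, the 5 genes most like Il7 and Il2rg among those of at least 1 CPM, and of each marker list the 2 genes of highest CPM and any at 0. Other markers with a call, Itgax, Cd28, Cd8b, Cd2 and the CD3 genes were named after their values were seen. Some results that this rule covers are not reported here.

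Rats carry the numbers 1 to 6 in each group, with no statement that a number marks a shared cage or batch. Deviations of same-numbered rats from the group means correlated by -0.119 to 0.171 (NASH and control), 0.0272 to 0.124 (NASH-CH and control) and -0.0744 to 0.0804 (NASH-CH and NASH), and the rats were treated as unpaired. Libraries of the same group all differed by more than counting error (smallest chi-square per degree of freedom 41.8, 28.3 and 71.1 in control, NASH and NASH-CH). The methods of the study state that rats shared cages, but cage mates are not named, so cage could not enter the fit. P-values treat the rats as independent and measure the spread between these rats. Totals of 19498534 to 60117822 counts give counting error only.

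Alternatives were DESeq2 1.42.0, the quasi-likelihood test of edgeR, other scalings and filters, fits of only 2 groups, quality weights per library, a replicate block, thinned NASH-CH counts, no small RNA genes, stricter thresholds and each rat left out. The fits were tested on simulated data. Promoters came from RefSeq (GRCr8), and no protein sequence was used here. Human liver data and tissue measurements were not analysed here.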

Additional observations from a re-analysis of the deposited data

Results flagged for a closer look

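In each group of 6 rats, the highest and lowest value of each member gene and of each marker sum was compared with its nearest neighbour (Dixon's criterion, critical value 0.625). Of 57 groups 12 had such a value, where chance gives about 5%, and the groups are not independent, since several concern NASH-CH rat 5 and the CD3 genes are part of the T lymphocyte list. Among the members these were Il2rg in NASH-CH rat 5, at 4.19 CPM against 1.14 to 1.59 in the other 5, and Stat5a in NASH-CH rat 1, at 4.58 CPM against 3.61 to 3.91.

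NASH-CH rat 5 also had the highest sum of T lymphocyte markers (22.5 CPM against 11.2 to 14.4), of the CD3 genes (1.16 against 0.0873 to 0.423), of T lymphocyte markers without Cd4 (6.48 against 1.81 to 2.46), of neutrophil markers (5.43 against 0.585 to 2.14) and of cholangiocyte markers (33.4 against 4.24 to 12.2). Its Il7 and Stat5a levels, 1.36 and 3.91 CPM, lay within the range of the other NASH-CH rats, and its Jak1 level, 149 CPM, was the lowest of its group. The Il2rb level of this rat, 2.87 CPM, was the highest of its group, and its Il15ra level, 2.51 CPM, the lowest. Its Jak3 level was 6.44 CPM, under the 10.2 CPM of NASH-CH rat 4.

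Control rat 5 had the highest sums of CD3 genes (0.347 CPM against 0.0386 to 0.151) and of macrophage and dendritic cell markers (416 against 241 to 276) in its group. The stellate cell sum of control rat 1 was 371 CPM against 278 to 312. For cholangiocyte markers control rat 3 was lowest, at 6.61 CPM against 7.14 to 7.33, and NASH rat 2 was highest, at 11.3 against 5.03 to 6.11.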

How the results depend on the processing

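Counts are given in the order NASH against control, NASH-CH against control, NASH-CH against NASH, where a count moved by over 1.5 times. Over all genes (403, 2192 and 542), the first was 652 with edgeR, 1228 with DESeq2, 865 with scaling to library size only, 268 with no filter on low counts, 644 with the 2 groups fitted alone, 1509 with quality weights, 39 at 0.01, 117 at a log2 fold change of at least 1 and 1014 without NASH-CH rats 5 and 6. The second was 5495 with no filter, 1408 with the groups alone, 849 at 0.01 and 685 at the fold minimum. The third was 949 with DESeq2, 2649 with no filter, 349 with the groups alone, 268 without small RNA genes, 239 at 0.01 and 320 at the fold minimum.

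Members called (1, 3 and 3) became 2 in NASH with DESeq2 or library size only, 0 with at least 10 counts in every sample (Il7 and Il2rg were then not tested) and 0 at 0.01. In NASH-CH against control they became 1 at 0.01. Against NASH they became 0 with library size only, with the groups alone and at 0.01, and 1 with the count minimum, without small RNA genes, at the fold minimum and without NASH-CH rats 5 and 6.

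Pathway genes called (1, 6 and 0) became 3 in NASH with DESeq2 or quality weights, 2 without NASH-CH rats 5 and 6, and 0 at 0.01 or at the fold minimum. In NASH-CH they became 10 with library size only, 3 with the groups alone, 2 at 0.01 and 0 at the fold minimum. Against NASH 1 passed with DESeq2, with no filter and with quality weights. Library size only turned Il2rg in NASH to 0.07 and Il2rb in NASH-CH to 0.18. With the other T cell markers, a choice made after seeing the data, 1 of 15 within-group correlations passed. Without the 2 rats farthest from the median, the fit cannot decide whether that relation holds, as given above.

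With the replicate block, which treats rats of the same number as paired, members called between NASH-CH and NASH fell to 1 and pathway genes called in NASH rose to 2. All-gene counts were 444, 2095 and 540.

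With each rat left out in turn, all-gene counts ran from 128 to 982, from 1519 to 2409 and from 346 to 591. Members called ran from 1 to 2, from 2 to 4 and from 0 to 2, and pathway genes called from 0 to 3, from 3 to 7 and from 0 to 1. Signs turned for small values only: Jak3 in NASH ran from -0.03 to 0.14 (below 0 without control rat 5 or NASH rat 5), Il2rb in NASH-CH from -0.16 to 0.01 (above 0 without control rat 5) and Il15ra in NASH-CH from -0.08 to 0.23 (below 0 without control rat 1 or 5). The cause of these changes was not tested beyond the fewer genes or rats tested. Depth limits Il7, Il15 and Il2rg, which gave under 31 counts in each control library.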
